A study of Mus musculus with 4 samples.

Results

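The cell cycle and DNA replication genes examined here are 39 genes named in a list fixed by gene symbol, all of which are among the 12763 genes of the deposited expression table. They fall by role into 13 replication genes, 22 mitotic genes and 4 more widely expressed genes. The replication genes are Pcna, Mcm2 to Mcm7, Tyms, Rrm1, Rrm2, Gins2, Tk1 and Cdc6. The mitotic genes are Mki67, Top2a, Birc5, Ccnb1, Ccnb2, Ccna2, Cdk1, Cdkn3, Cdc20, Aurka, Aurkb, Cenpa, Cenpe, Cenpf, Tpx2, Kif11, Kif15, Kif20a, Nusap1, Ube2c, Bub1 and Plk1. The broadly expressed genes are Stmn1, Hmgb2, Tubb5 and Tuba1b.

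The series profiled CD8 T cells one by one from lethally irradiated C57BL/6 mice rebuilt with a mixture of marrow of a pair of donors. Both donors carried a loxP-flanked Cd137 gene (Tnfrsf9, a costimulatory receptor of activated T cells) and a ROSA26 tomato reporter. Only the first also carried Cre under the Cd4 promoter. All recipients received subcutaneous B16K1 melanoma cells, and spleen and tumour were taken on day 21. Cells were sorted by tomato into a CD137 minus and a CD137 plus fraction, and those of 7 mice were pooled into 1 library per tissue and fraction. This gave 4 groups: spleen CD137 minus, spleen CD137 plus, tumour CD137 minus and tumour CD137 plus. The sources contradict each other on which fraction carried tomato, so the groups follow CD137 status. The fractions also differ in Cre and in donor, which cannot be told apart from CD137 loss, and recipients may keep T cells of their own.

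In a dividing cell, the Mcm2-7 helicase is loaded on replication origins in G1 and opens the DNA in S phase, where the Pcna clamp holds the polymerases and Tyms, Tk1 and ribonucleotide reductase supply deoxynucleotides. Later, cyclin A and cyclin B with Cdk1 drive entry into mitosis, and Aurora kinases, centromere proteins, kinesins and the anaphase-promoting complex order the separation of chromosomes. Naive CD8 T cells rest outside the cycle, whereas cells that have met antigen divide in bursts, so these genes are commonly used as markers of dividing T cells.

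Replication genes are classically tied to E2F sites and mitotic genes to the cell cycle homology region (CHR), often beside CCAAT boxes. For this reason 6 promoters of replication and mitotic genes are shown, although not every member holds these letters. The letters are the 200 bases before the RefSeq start in GRCm38.p6, given 5′ to 3′ on the strand of the gene. Capitals mark the E2F letters TTTCCCGC or TTTGGCGC and the CHR letters TTTGAA, read on either strand. Mcm5 lies at chr8:75109309-75109508 (plus strand), Mcm6 at chr1:128359706-128359905 (minus strand) and Rrm2 at chr12:24708054-24708253 (plus strand). Cdk1 lies at chr10:69352913-69353112, Cdc20 at chr4:118437344-118437543 and Top2a at chr11:99024190-99024389, all on the minus strand.
Mcm5: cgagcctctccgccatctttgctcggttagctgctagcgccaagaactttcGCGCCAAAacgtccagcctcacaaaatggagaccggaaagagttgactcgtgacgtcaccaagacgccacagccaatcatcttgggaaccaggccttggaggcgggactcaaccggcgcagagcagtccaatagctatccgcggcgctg
Mcm6: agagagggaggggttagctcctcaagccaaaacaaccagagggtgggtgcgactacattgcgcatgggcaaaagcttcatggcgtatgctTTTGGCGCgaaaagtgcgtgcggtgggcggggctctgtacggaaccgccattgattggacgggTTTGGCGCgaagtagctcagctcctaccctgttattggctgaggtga
Rrm2: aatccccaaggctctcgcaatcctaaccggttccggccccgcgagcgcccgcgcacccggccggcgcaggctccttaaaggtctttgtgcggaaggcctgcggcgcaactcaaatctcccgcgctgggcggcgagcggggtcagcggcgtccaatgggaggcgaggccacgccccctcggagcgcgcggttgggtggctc
Cdk1: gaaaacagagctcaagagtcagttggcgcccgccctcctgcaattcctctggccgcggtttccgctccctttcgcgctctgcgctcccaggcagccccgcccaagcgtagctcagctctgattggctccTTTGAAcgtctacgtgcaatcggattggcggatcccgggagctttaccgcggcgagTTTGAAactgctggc
Cdc20: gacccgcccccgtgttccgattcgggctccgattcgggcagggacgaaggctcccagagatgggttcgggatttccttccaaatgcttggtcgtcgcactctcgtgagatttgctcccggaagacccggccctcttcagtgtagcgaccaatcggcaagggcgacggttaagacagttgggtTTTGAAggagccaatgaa
Top2a: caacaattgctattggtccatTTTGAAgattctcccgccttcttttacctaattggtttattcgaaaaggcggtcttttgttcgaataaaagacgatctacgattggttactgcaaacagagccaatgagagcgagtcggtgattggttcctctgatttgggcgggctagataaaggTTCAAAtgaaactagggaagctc

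The promoter table, which spans 250 bases before to 50 after each start, held 32 of the 39 members. Mcm4, Gins2, Ccna2, Aurkb, Tpx2, Kif20a and Stmn1 were not matched. E2F letters were found in 5 of 12 windows of replication genes (41.7%) and in 1 of 18 of mitotic genes (5.56%), against 1.56% of all 32851 windows. CHR letters were in 1 of 12 replication windows (8.33%) and 13 of 18 mitotic windows (72.2%), against 17.9% of all. CCAAT letters were common to both roles, in 9 of 12 and 15 of 18 windows, against 37.4% of all. No one of these motifs contains another. Rrm2, shown above, holds neither E2F nor CHR letters in these bases. A match describes letters and not binding.

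Cell numbers were 2464 and 473 for the minus and plus fractions of spleen, and 1262 and 2766 for those of tumour. Median totals per cell were, in that order, 3973, 5344, 4833.5 and 3701.5 corrected counts, the whole numbers recovered from the deposited values, and 19 cell barcodes occurred in more than 1 library. Levels are corrected counts summed over a library and scaled to its total (CPM), and a log2 ratio adds 1 CPM to both levels. Every group was 1 library, so no difference here has a test or a replicate error. A gene was measured in a comparison with a mean of at least 5 CPM, at least 30 corrected counts and a value in both libraries, and was called higher or lower from a log2 ratio of 0.5 in size. Intervals of shares are exact 95% binomial (Clopper-Pearson) limits, which hold counting error alone. Tnfrsf9, the targeted gene, was at 2.34 and 16.2 CPM in spleen minus and plus and at 57.5 and 421 CPM in tumour minus and plus, lower in each minus library but not absent, and which part of the transcript was counted is not known. Cd8b1 had a value in at least 97.6% of cells of each library, and the 8 CD8 T cell markers summed to between 6337 and 7679 CPM. The 9 melanoma markers in the table summed to 1.02 and 0 CPM in spleen minus and plus, and to 77.0 and 83.1 CPM in tumour minus and plus. In the order spleen minus, spleen plus, tumour minus and tumour plus, the 3 erythroid and progenitor markers in the table summed to 0, 0, 1.49 and 64.0 CPM, the 8 of macrophages and monocytes to 4.17, 4.05, 40.6 and 49.7 CPM, and the 6 of CD4 and regulatory T cells to 27.6, 25.5, 277 and 322 CPM. The 11 dendritic cell markers summed to 507, 484, 718 and 1104.5 CPM, with 5 of 9 measured ones lower in tumour minus than plus (median -0.67), the 7 NK cell markers to 97.8, 156, 201 and 266 CPM, and the 9 B cell markers to 316, 231, 134 and 132 CPM. The part of other cells in the results below was not tested, apart from values without cells carrying melanoma markers.

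Detection sets a limit on the rarer members. The lowest number of cells with a value for any gene was 5 in 3 libraries and 4 in spleen minus, and all other genes are listed at 0. In the small spleen plus library a gene in 4 cells, or 0.846% of cells, would thus be listed at 0, whereas 4 cells are 0.145% of the tumour plus library. In spleen plus 16 of 22 mitotic and 2 of 13 replication members were listed at 0, in spleen minus only Bub1 and Cdc6 were, and in tumour none was. No fold is given for such a gene.

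The mitotic genes were at higher levels in tumour than in spleen. Of these, 6 had a value in every library (Mki67, Top2a, Cdk1, Cdc20, Aurka and Cenpa), and their summed level was 43.6 and 44.6 CPM in the minus and plus fractions of spleen, and 177 and 221 CPM in those of tumour. The tumour level was thus 4.05 times the spleen level in the minus fraction and 4.95 times in the plus fraction. Both tumour libraries were above both spleen libraries, and the spleen sums were close to each other. Summed over all 22 mitotic genes the levels were 68.4, 44.6, 307 and 397 CPM, with tumour to spleen ratios of 4.50 and 8.91, where the plus ratio includes the 16 genes listed at 0 in spleen.

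**Figure D1:**
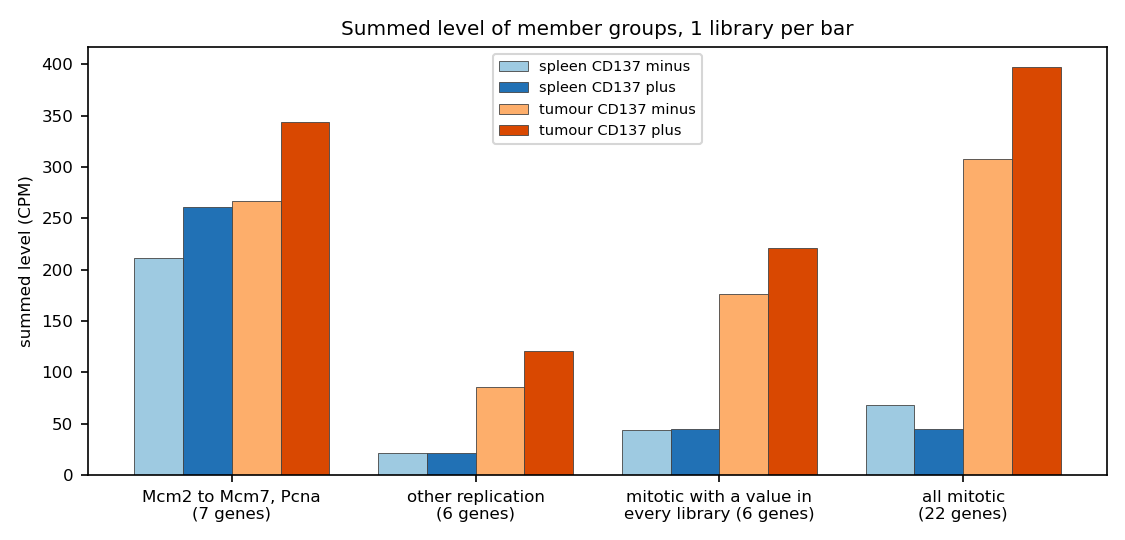
Summed level in CPM (vertical axis) of 4 groups of members, with 1 bar per library and no error bar because each group is 1 library. Mcm2 to Mcm7 with Pcna span 211 to 344 CPM over all libraries, whereas the other replication genes and the mitotic genes stand clearly higher in both tumour libraries than in both spleen libraries.

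In the plus fraction all 5 measured mitotic genes were higher in tumour than in spleen, where 22% of all 8669 measured genes were higher. In the minus fraction it was 9 of 9 measured mitotic genes, where 21.7% of all 8569 genes were higher. A gene below 5 CPM in spleen was measured only if its tumour level was above 5 CPM, so the filter fixed its direction. In the plus fraction this held for all of these genes but Cenpa. In the minus fraction it held for all but Cenpa and Top2a, with log2 ratios of 1.91 and 2.05. With every gene that had a value in both libraries of the minus fraction, 20 of 21 mitotic genes were higher, where 23.3% of all such genes were. Some of the added genes were near the floor, such as Kif20a at 0.509 CPM (5 corrected counts) in spleen minus. Top2a, the topoisomerase that untangles sister chromatids, was at 8.75 CPM in spleen minus, 4.87 in spleen plus, 39.3 in tumour minus and 46.1 in tumour plus, a tumour to spleen log2 ratio of 2.05 in the minus and 3.01 in the plus fraction. Mki67, which coats mitotic chromosomes and encodes the proliferation marker Ki-67, was at 2.75, 3.24, 18.7 and 23.8 CPM in the same order (2.40 and 2.54). For both genes each tumour library was at least 4 times the higher spleen library.

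Birc5, the survivin subunit of the chromosomal passenger complex, was at 2.34 CPM in spleen minus, listed at 0 in spleen plus, and at 18.55 and 23.7 CPM in tumour minus and plus. Ccnb2, a mitotic cyclin, was at 2.75 CPM in spleen minus, listed at 0 in spleen plus, and at 21.7 and 26.4 CPM in tumour. Their tumour to spleen log2 ratios in the minus fraction were 2.55 and 2.60. Cenpa, the histone H3 variant of centromeres, was the most widely detected mitotic member, with 25.5 and 26.8 CPM in spleen and 98.5 and 124.9 CPM in tumour. Cdc20, the activator of the anaphase-promoting complex, showed the smallest measured tissue difference of the role in both fractions, with 3.97 and 4.05 CPM in spleen and 6.62 and 8.08 CPM in tumour (0.62 and 0.85). Ube2c, the ubiquitin-conjugating enzyme of the same complex, went from 3.66 CPM in spleen minus to 21.4 CPM in tumour minus (2.26).

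The replication genes differed in how far they were apart between tissues. Mcm2 to Mcm7 with Pcna summed to 211 and 261 CPM in spleen minus and plus, and 266 and 344 CPM in the tumour libraries, so that the tumour level was 1.26 times the spleen level in the minus and 1.32 times in the plus fraction. The spleen plus and tumour minus levels nearly coincided. The other 6 genes, Tyms, Rrm1, Rrm2, Gins2, Tk1 and Cdc6, summed to 21.2 and 21.9 CPM in spleen and to 86.1 and 120.4 CPM in tumour, 4.07 and 5.50 times as much. These sums do not describe each gene: Pcna, in the first sum, was higher in tumour in both fractions, and by more than Rrm1 in the minus fraction.

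Of the measured replication genes 6 of 11 were higher in tumour in the plus fraction and 6 of 12 in the minus fraction, where 22% and 21.7% of all genes were higher. None was lower, where 20.1% and 16.3% of all genes were lower. Rrm2 and Gins2 in both fractions, and Tyms and Tk1 in minus, were below 5 CPM in spleen. The filter fixed their direction in the same way. Rrm2, the regulated subunit of ribonucleotide reductase, was at 1.42 and 2.43 CPM in spleen minus and plus and at 17.9 and 27.3 CPM in tumour minus and plus, with log2 ratios of 2.96 and 3.04. Tyms, thymidylate synthase, was at 4.58 and 6.49 CPM in spleen and 23.2 and 33.4 CPM in tumour (2.12 and 2.20). Gins2, a subunit of the active replicative helicase, was at 2.54 and 2.43 CPM in spleen and 10.3 and 14.5 CPM in tumour (1.67 and 2.18). Rrm1, the large reductase subunit, differed less, with 10.8 and 10.5 CPM against 16.7 and 23.3 CPM (0.59 and 1.07).

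Pcna was at 49.2 and 58.8 CPM in spleen and 97.4 and 110.2 CPM in tumour, a log2 ratio of 0.97 in the minus and 0.90 in the plus fraction. Mcm2, a subunit of the same helicase as Mcm5 and Mcm6, was at a lower level in tumour in both fractions without passing the limit, with 14.1 and 21.1 CPM in spleen and 9.94 and 15.0 CPM in tumour (-0.47 and -0.47). Mcm6 was at 38.0 and 48.65 CPM in spleen and 35.8 and 49.8 CPM in tumour (-0.09 and 0.03), which leaves the tissues overlapping. Mcm5 passed the size limit in the plus fraction (0.84) and not in the minus fraction (0.26), a difference between fractions that was not tested. Tk1, the thymidine salvage kinase, was at 1.83 CPM in spleen minus, listed at 0 in spleen plus, and at 14.9 and 16.5 CPM in tumour, and Cdc6, a helicase loader, was listed at 0 in spleen and at 3.15 and 5.45 CPM in tumour.

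The broadly expressed members did not move as 1 group between tissues. Stmn1, a microtubule destabiliser, was at 29.8 and 29.6 CPM in spleen and 100.4 and 122 CPM in tumour (1.72 and 2.01), and Hmgb2, a chromatin protein, was at 152 and 169 CPM against 336 and 361 CPM (1.14 and 1.09). Tubb5, a beta-tubulin, went the other way, with 817 and 714 CPM in spleen and 379 and 412 CPM in tumour (-1.10 and -0.79). Tuba1b, an alpha-tubulin, was at 122 and 177 CPM in spleen and 87.6 and 111 CPM in tumour (-0.48 and -0.67). All spleen libraries were above all tumour libraries for both tubulins.

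**Figure D2:**
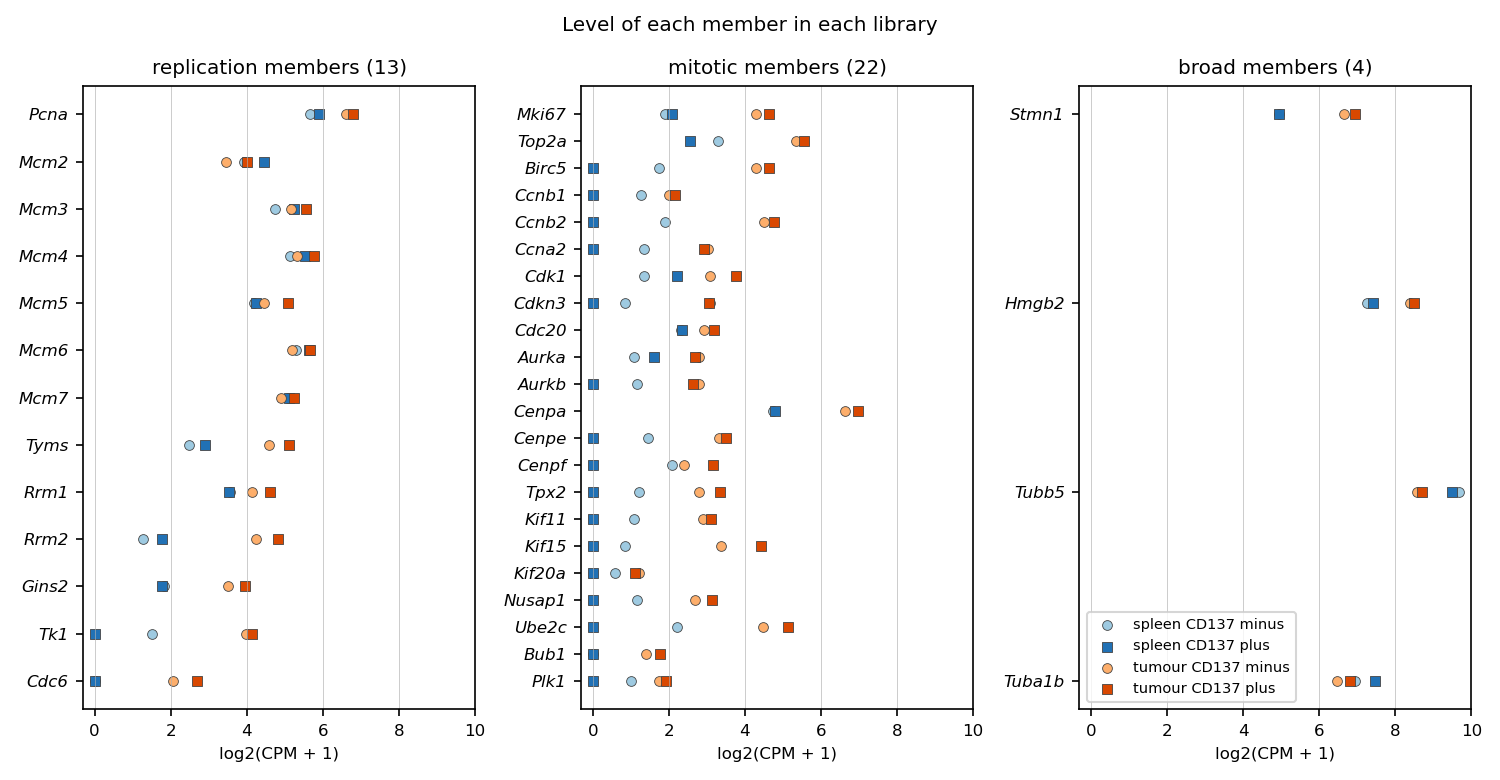
Level of each of the 39 members as log2(CPM + 1) on the horizontal axis, with 1 symbol per library and genes grouped by role, where a symbol at 0 is a gene listed at 0. The mitotic genes and Tyms, Rrm2 and Gins2 separate by tissue, whereas the symbols of Mcm2 to Mcm7 lie close together and those of Tubb5 are reversed.

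Within the spleen, the CD137 minus and plus libraries gave no single direction in the mitotic genes found in both. The 6 genes with a value everywhere gave a minus to plus ratio of 0.979, in a sum of which Cenpa was 25.5 of 43.6 CPM in minus. Over all 22 mitotic genes the ratio was 1.53, and 2.40 without Cenpa, with 16 genes listed at 0 in plus. Below the filter, Cdk1 was at 1.53 and 3.65 CPM (-0.88) and Aurka at 1.12 and 2.03 CPM (-0.51). Only 2 mitotic genes were measured, Cenpa (-0.06) and Top2a (0.73), and Top2a was thus counted as higher, where 2.47% of all 8501 genes were higher. Of the 86 corrected counts of Top2a in spleen minus, 33 came from 4 cells, as described below. Without the 6 mitosis-positive cells its level was 5.41 CPM, against 4.87 CPM in spleen plus. Those cells were picked by mitotic genes, Top2a among them, so a fall was built in, and spleen plus had none to leave out. Of 9 measured replication genes 1 was lower in minus, Mcm2 (14.1 against 21.1 CPM, -0.54), where 13.1% of all genes were lower. The 9 had a median of -0.35, against -0.10 over all genes, and Tuba1b was also lower (-0.53).

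Within the tumour, replication genes were somewhat lower in the CD137 minus library throughout. All 12 measured replication genes had a log2 ratio below 0, from -0.61 to -0.14, with a median of -0.46, where the median of all 8701 genes was -0.12 and 5975 of them were below 0. Relative to that median the replication median was -0.34. Past the size limit 4 of 12 were lower and none was higher, where 7.15% of all genes were lower and 2.28% higher. Relative to the median of all genes 0 of the 12 passed the limit.

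Mcm5 was at 21.0 CPM in tumour minus and 32.6 CPM in tumour plus (-0.61), Rrm2 at 17.9 and 27.3 CPM (-0.58), Mcm2 at 9.94 and 15.0 CPM (-0.55) and Tyms at 23.2 and 33.4 CPM (-0.51). The remaining Mcm genes lay between -0.47 and -0.35, with Gins2 at -0.46 and Rrm1 at -0.45. Pcna, at 97.4 and 110.2 CPM, and Tk1, at 14.9 and 16.5 CPM, were closest to the median of all genes (-0.18 and -0.14). Cdc6 was below the filter.

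The mitotic genes were more mixed. Of 18 measured, 14 were below 0 and 4 above, with a median of -0.30, and 5 were lower past the size limit with none higher, where 7.15% of all genes were lower and 2.28% higher. Relative to the median of all genes 4 of the 18 were lower, where 3.86% of all genes were. Kif15, a spindle kinesin, stood furthest out with 9.27 CPM in tumour minus and 20.3 CPM in tumour plus (-1.05). Cenpf, a kinetochore protein, was at 4.31 and 7.88 CPM (-0.74), and Cdk1, the mitotic kinase, at 7.45 and 12.6 CPM (-0.68). Cenpf, below 5 CPM in minus, passed the filter only through plus, which fixed its direction. Ube2c was at 21.4 and 34.1 CPM (-0.65) and Tpx2, an activator of Aurora A, at 5.96 and 9.15 CPM (-0.54).

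The mitotic genes above 0 were Aurkb (0.18) and Aurka (0.11), the Aurora kinases, Ccna2 (0.09), cyclin A, and Cdkn3 (0.03), a CDK-directed phosphatase, each at 5 to 8 CPM in both libraries. Birc5, Mki67, Ccnb2 and Top2a lay between -0.33 and -0.23. The rest were Nusap1 (-0.44), Cenpa (-0.34), Cdc20 (-0.25), Kif11 (-0.20) and Cenpe (-0.20). Ccnb1, Kif20a, Bub1 and Plk1 were below the filter, with levels below 4 CPM in both libraries. The 4 broad members lay between -0.34 (Tuba1b) and -0.11 (Hmgb2), and none passed the limit.

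**Figure D3:**
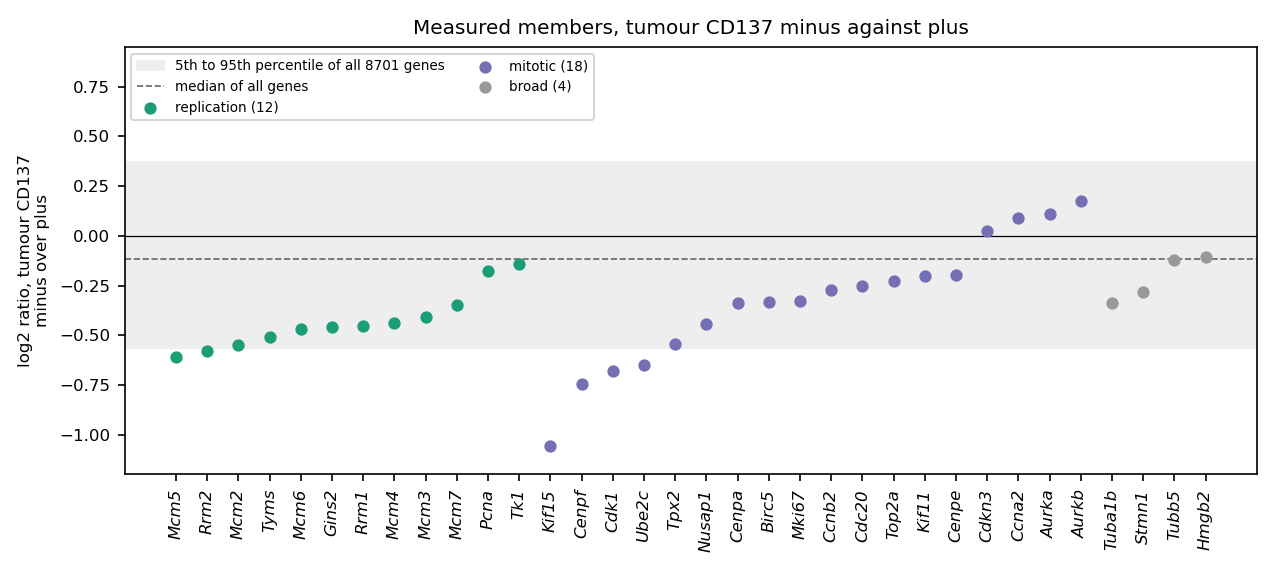
Log2 ratio of tumour CD137 minus over tumour CD137 plus (vertical axis) for the 34 measured members by role, with the 5th to 95th percentile of all measured genes as a grey band and their median as a dashed line. All 12 replication genes lie below 0, while the mitotic genes spread from -1.05 for Kif15 to 0.18 for Aurkb.

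Other genes of the pathway were also mixed, and their counts stand beside the 7.15% of all genes that were lower and the 2.28% that were higher. Of 27 measured replication fork and polymerase genes 6 were lower in tumour minus and none higher, with a median of -0.40, and Uhrf1, which couples DNA methylation to replication, was at 10.6 and 17.7 CPM (-0.69). Of 10 cyclins and kinases of G1 and S phase 5 were lower, among them Ccne2 (5.96 and 10.3 CPM, -0.70) and Ccnd1 (4.31 and 7.98 CPM, -0.76), whereas Myc (0.04) and Ccnd3 (0.05) were level. Of 16 nucleotide supply genes none was lower or higher (median -0.10), and of 10 spindle checkpoint and anaphase-promoting complex genes none was either (-0.17). Of 5 CDK inhibitors Cdkn2a was lower, at 7.95 and 19.2 CPM (-1.17). Of 13 replication-dependent histone genes 4 were higher and 1 lower, including Hist1h4c (22.9 against 11.7 CPM, 0.91) and Hist1h2bc (2.98 against 7.69 CPM, -1.13). Ccnd1 and Hist1h2bc, below 5 CPM in minus, passed the filter only through plus, which fixed their direction. Of 14 quiescence and antiproliferative genes 1 was higher, Foxp1 (154 against 107 CPM, 0.52), with a median of 0.15.

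To ask how many cells carried these transcripts, a cell was counted as replication-positive with a value for at least 3 of the 13 replication genes and as mitosis-positive with a value for at least 3 of the 22 mitotic genes. These are ranges cut from a count of genes, not cell types or phase calls. Mitosis-positive cells were 95 of 1262 in tumour minus (7.53%, 6.13 to 9.12) and 239 of 2766 in tumour plus (8.64%, 7.62 to 9.75), and their intervals overlap. In spleen they were 6 of 2464 in minus (0.244%, 0.0894 to 0.529) and 0 of 473 in plus, where only 6 of the 22 genes had any value. With every cell thinned to 2900 corrected counts, which left out 0 cells, the tumour shares were 4.68% and 6.51% and the spleen shares 0.203% and 0%. The tumour shares thus stood far above the spleen shares with and without thinning.

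Replication-positive cells were 5.19% (4.35 to 6.15) of spleen minus, 12.1% (9.26 to 15.3) of spleen plus, 11.9% (10.2 to 13.8) of tumour minus and 12.8% (11.5 to 14.1) of tumour plus. After thinning the shares were 2.15%, 2.96%, 6.58% and 9.62%. At equal totals the interval of spleen plus, the library with the highest total per cell, overlapped that of spleen minus (1.63 to 4.92 and 1.62 to 2.80), and that of tumour minus (5.27 to 8.09) lay below that of tumour plus (8.54 to 10.8). The raw depth of the cells is not known from these values.

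Many positive cells stood at the limit itself. Exactly 3 replication genes were found in 94 of the 128 replication-positive cells of spleen minus and in 160 of 353 of tumour plus. Exactly 3 mitotic genes were found in 46 of the 95 mitosis-positive cells of tumour minus and in 107 of 239 of tumour plus. With at least 6 mitotic genes the tumour shares were 2.54% (1.74 to 3.56) in minus and 2.21% (1.69 to 2.82) in plus, so the order of the libraries turned, within overlapping intervals.

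**Figure D4:**
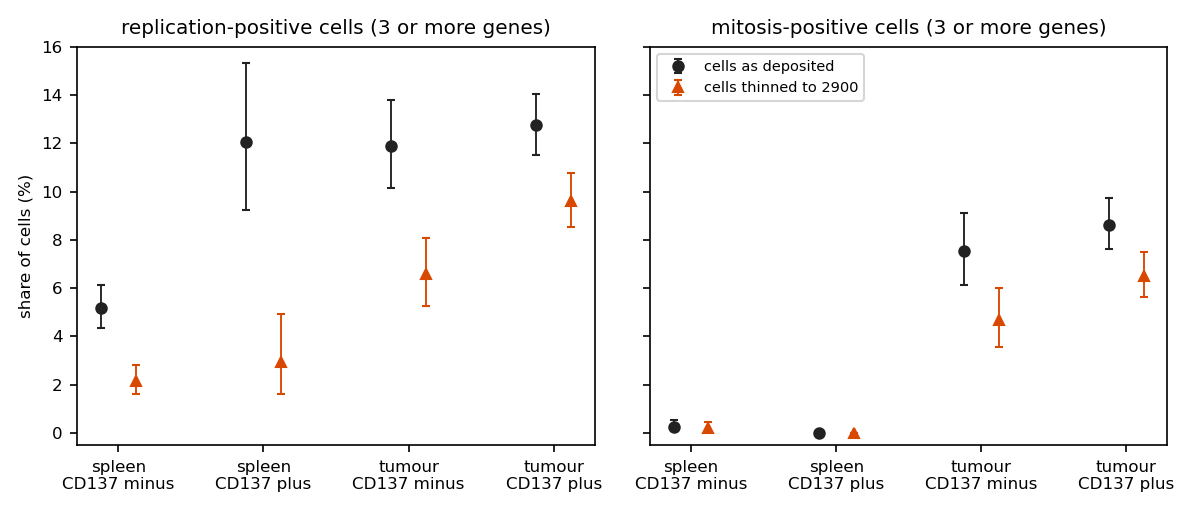
Share of cells (vertical axis, percent) that were replication-positive (left) or mitosis-positive (right) in each library, for cells as deposited and thinned to 2900 corrected counts, with exact 95% intervals of counting error except where the share is 0. Mitosis-positive cells were 7.53% and 8.64% of the tumour libraries and at most 0.244% of the spleen libraries, and the replication-positive share of spleen plus dropped from 12.1% to 2.96% on thinning.

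In spleen minus a few cells held more than their share of the mitotic counts, while 57.1% of these counts lay in cells of neither class. The 4 cells with at least 6 mitotic genes, 0.162% of the library, held 248 of its 672 corrected counts of mitotic genes (36.9%). All 4 had values for Mki67, Top2a, Birc5, Ccnb2 and Ube2c, and they held 19 of the 23 counts of Birc5 and 28 of the 32 of Cenpf. Cenpa was different, with 21 of its 251 counts there. Without the 6 mitosis-positive cells the mitotic genes summed to 42.2 CPM, against 44.6 CPM in spleen plus. As these cells were picked by the same genes, a large share in them and a fall without them were built in. In tumour the cells with at least 6 mitotic genes held 41.2% of the mitotic counts of the minus and 32.8% of those of the plus library.

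Replication and mitotic genes were found partly in the same tumour cells. Of the 95 mitosis-positive cells of tumour minus 47 were also replication-positive (49.5%, 39.1 to 59.9), as were 105 of the 239 of tumour plus (43.9%, 37.5 to 50.5). Mitosis-positive cells held 58.7% and 56.1% of all mitotic counts in these libraries, and 27.5% and 29.7% of replication counts. The mitotic shares are large in part by definition, because the same genes set the class. Cells of neither class still held 46.6% and 42.6% of replication counts and 34.5% and 37.6% of mitotic counts. Mitosis-positive cells had higher totals than their library, a median of 5333 against 4833.5 in minus and 4132 against 3701.5 in plus, and the part of these totals in the shared detection was not tested.

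How closely a member kept to such cells was measured with the gene itself left out, by comparing cells that had at least 3 other replication or mitotic genes with the remaining cells. Birc5 was found in 14.1% and 14.5% of the former in tumour minus and plus and in 0.522% and 0.893% of the latter, and 91.1% and 89.7% of its counts lay in the former. Bub1, a spindle checkpoint kinase, had all of its few counts there. Ccna2, with 90.7% and 97.1%, and Cenpf, with 92.3% and 87.7%, were nearly as concentrated. For these genes such cells were 24.01 to 24.2% of tumour minus and 27.1 to 27.4% of tumour plus.

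Among replication genes, Gins2 (83.9% and 74.5%), Tk1 (82.2% and 87.6%), Rrm2 (75.9% and 84.3%) and Cdc6 (73.7% and 80.4%) had most of their counts in such cells, whereas Mcm6 (36.6% and 47.5%), Mcm4 (49.6% and 45.8%) and Pcna (29.8% and 34.2%) were spread over many other cells. Pcna was found in 28.5% and 25.2% of cells outside the set. Most counts of Pcna and of Mcm6 thus lay in cells with few other members. Among mitotic genes Aurka (44.4% and 37.5%), Cenpa (46.6% and 41.0%), Kif15 (53.6% and 48.3%) and Top2a (57.4% and 59.5%) were the least concentrated.

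Pairs of members showed the same. Birc5 was found in 26 of the 50 tumour minus cells with Ccnb2 (52.0%, 37.4 to 66.3) and in 70 of the 145 of tumour plus (48.3%, 39.9 to 56.7), against 1.82% and 2.17% of cells without Ccnb2. Tyms was found in 44.6% and 41.4% of cells with Rrm2, against 6.88% and 7.59% of the rest. Pcna gave a weaker contrast in tumour plus, with 37.8% of cells with Birc5 against 27.8% of cells without, and in tumour minus it was 70.8% against 30.5%. Birc5 was found in 13.9% and 16.5% of cells with Top2a, against 2.72% and 3.22% of the rest.

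The broad members, which took no part in the classes, also separated. Stmn1 was at 647 and 678 CPM in mitosis-positive cells of tumour minus and plus, and at 42.6 and 54.0 CPM in cells of neither class. Hmgb2 was at 1323 and 1348 CPM against 240 and 251 CPM. Tubb5 had a smaller contrast, with 680.0 and 850.5 CPM against 359.8 and 360.4 CPM, and was found in 74.7% and 70.7% of mitosis-positive cells and in 75.3% and 60.0% of cells of neither class. In spleen cells of neither class Tubb5 stood at 816 and 716 CPM, above that of tumour cells of neither class.

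Mitosis-positive tumour cells were more frequent among cells with Pdcd1. Cells were split by detection of Pdcd1 (PD-1) and Havcr2 (TIM-3), inhibitory receptors of activated and exhausted T cells. Mitosis-positive cells were 14.6% (8.21 to 23.3) and 16.03% (11.98 to 20.8) of cells with Pdcd1 and Havcr2 in tumour minus and plus, and 14.1% (10.9 to 17.8) and 10.9% (9.21 to 12.8) of cells with Pdcd1 and no Havcr2. They were 2.94% (1.85 to 4.42) and 4.68% (3.57 to 6.01) of cells without Pdcd1, a set that was 0.247% and 0% mitosis-positive in spleen minus and plus. The intervals of cells without Pdcd1 lie below those of both Pdcd1 sets in each tumour library. Their median totals were 4759 and 3557, against 4963 and 3737 for cells with Pdcd1 and no Havcr2 and 5255 and 4071 with both. Median genes per cell in the same order of sets were 1334.5 and 1187, 1665 and 1422.5, and 1998 and 1766. Thinned, the mitosis-positive shares were 2.14% and 3.63%, 8.37% and 8.31%, and 8.33% and 11.2%. The part of the number of genes per cell in these shares was not tested.

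Replication-positive cells showed a smaller gap over the same sets, with 18.8% and 18.8% of cells with Pdcd1 and Havcr2 and 8.02% (6.18 to 10.2) and 10.01% (8.39 to 11.8) of cells without Pdcd1. Among cells with Pdcd1, those that also had Tcf7, a factor of stem-like cells, were mitosis-positive in 7.59% (2.84 to 15.8) and 6.59% (3.33 to 11.5), and those without in 15.4% (12.1 to 19.1) and 12.5% (10.8 to 14.4), at median totals of 5086 and 5045 in minus and 3780 and 3840.5 in plus. The intervals overlap in both libraries.

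Cells with a Tnfrsf9 value were mitosis-positive in 20% (14.7 to 26.2) of 200 cells in tumour minus and 12.1% (10.4 to 14.1) of 1252 cells in tumour plus. Cells without one were so in 5.18% (3.93 to 6.69) and 5.75% (4.63 to 7.04). Thinned, the shares with Tnfrsf9 were 12.5% and 8.63%, and those without 3.20% and 4.76%. In both libraries the share was higher with Tnfrsf9, at median totals of 5256 against 4756 in minus and 3955.5 against 3519 in plus. Median genes per cell were 2014.5 against 1373.5 in minus and 1579.5 against 1181 in plus.

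**Figure D5:**
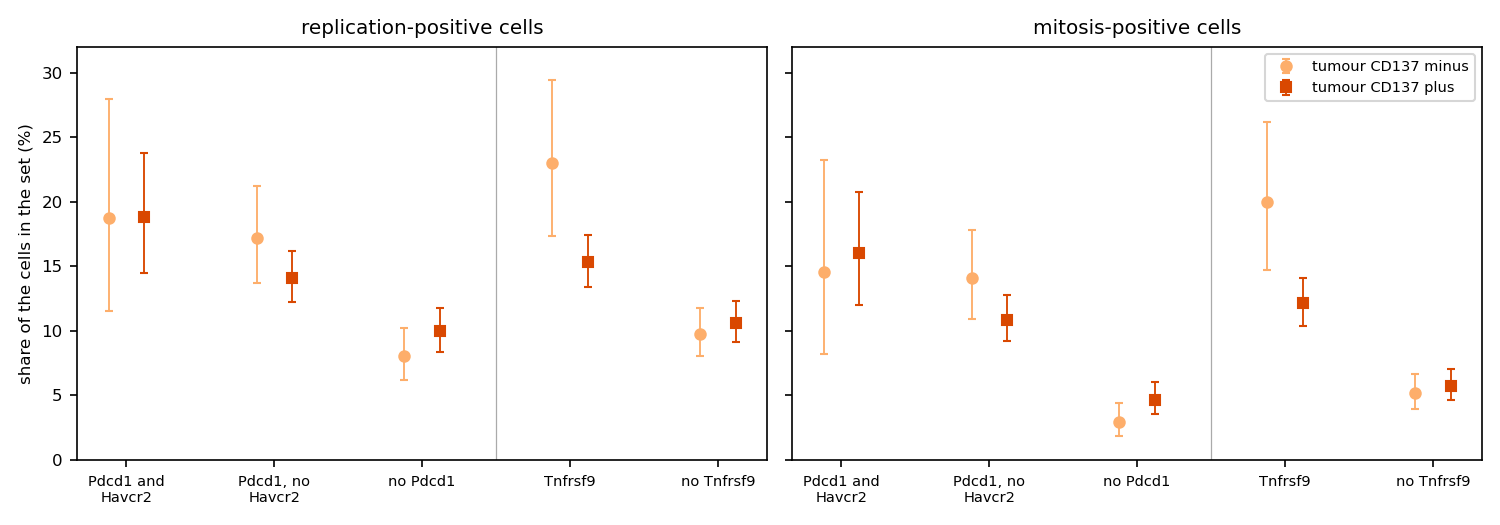
Share of replication-positive (left) and mitosis-positive (right) cells, in percent on the vertical axis, within sets of tumour cells defined by detected genes, with exact 95% intervals of counting error. In both libraries the mitosis-positive share is at most 4.68% in cells without Pdcd1 and at least 10.9% in both Pdcd1 sets.

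The sets were not equally filled. Cells without Pdcd1 were 59.3% of tumour minus and 44.8% of tumour plus. Within cells with Pdcd1 the mitotic genes summed to 481 CPM in minus and 524 CPM in plus, a log2 ratio of -0.12, against -0.37 over all cells, and the replication genes to 438 and 534 CPM (-0.29, against -0.40). Within cells without Pdcd1 the mitotic sums were 187 and 237 CPM (-0.35) and the replication sums 293 and 377 CPM (-0.36). Fewer cells of a kind and less RNA per cell cannot be told apart in the sums over a whole library. Among cells with Pdcd1, 4 of 13 replication genes were lower in minus, with a median of -0.23, and 5 of 18 mitotic genes, with a median of -0.16, where 5.62% of all genes were lower.

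A few tumour cells carried melanoma genes. Cells with at least 2 of the melanoma markers were 18 in tumour minus and 84 in tumour plus, and 5 (27.8%, 9.69 to 53.5) and 3 (3.57%, 0.743 to 10.1) of them were mitosis-positive, while 17 of the 84 were replication-positive (20.2%, 12.3 to 30.4). Without these cells the mitosis-positive shares were 7.23% in tumour minus and 8.80% in tumour plus. In the comparison of tumour fractions 6 of 18 mitotic genes (5 with these cells) and 4 of 12 replication genes were then lower. Over all genes 7.37% were lower in this setting.

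Genes outside the list that went most with replication-positive or mitosis-positive tumour cells were again genes of the cycle, as a description of cells chosen by the members. Pclaf, which binds Pcna, was at 188 and 238 CPM in these cells of tumour minus and plus and at 1.99 and 6.20 CPM in the others (5.98 and 5.05). Cdca8, another passenger complex subunit, was at 72.1 and 61.9 CPM against 1.39 and 4.41 CPM (4.93 and 3.54), and Cks1b, which binds cyclin-dependent kinases, at 95.8 and 104 CPM against 10.1 and 8.11 CPM (3.12 and 3.52). The others named by the same rule were Hist1h1b, Hist1h2ae, Asf1b, Lig1, Smc2, Rfc4, Fen1, Hells and Tipin, with log2 ratios from 1.92 to 3.83. All genes had a median of 0.41 and 0.29 in this contrast, and Cd8a was at 869 and 947 CPM against 675 and 923 CPM (0.37 and 0.04).

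Tcf7 stood lower in these cells in both tumour libraries, at 58.3 and 42.9 CPM against 111 and 86.6 CPM (-0.92 and -0.998). Pdcd1 was at 640.2 and 623 CPM against 307 and 495 CPM (1.06 and 0.33), Havcr2 at 40.5 and 59.3 CPM against 30.2 and 45.4 CPM (0.41 and 0.38), and Gzmb, granzyme B, at 254 and 260 CPM against 97.3 and 258 CPM (1.37 and 0.01). The levels of Pdcd1 and Gzmb in the positive cells were thus alike in both libraries, and those of the other cells were lower in minus. Tnfrsf9 was at 118 and 555 CPM against 45.4 and 391 CPM (1.35 and 0.50).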

How the data were processed

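The labels give 4 samples, 1 library per group, made with a 10x Chromium 5′ kit. The tools named, per the submitters' processing notes, are Cell Ranger (3.0.2) and Seurat (3.0), on mm10, the UCSC name of GRCm38. How cells were filtered, normalised and annotated is not given in the sources. For 6965 cells the deposited table gives natural log values, each of a whole number increased by 1, with 0 of 9837473 entries off by more than 1e-09 in relative terms. Totals per cell span narrow ranges in each library (2949 to 4588 in tumour plus, 3110 to 4884 in spleen minus), so these whole numbers were taken as depth-corrected (here corrected counts) and given no count model. No mouse or hashtag is given per cell, and doublets were not called.

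Corrected counts were summed per library and scaled to CPM. The members, lists, classes and rules were chosen with earlier results of these data known. Every member is reported. Other genes are named by rule: the 12 with the highest smaller log2 ratio of dividing-class against other cells over the tumour libraries, at 50 CPM or more in both; of each pathway list, examples from the 2 furthest above and the 2 furthest below 0 in the tumour comparison; and fixed reference genes. Ratios, thinning and intervals were tested on simulated data. The software was numpy 2.4.6, pandas 2.3.3, scipy 1.17.1 and matplotlib 3.10.9 under Python 3.11.15. Alternatives covered the pseudocount, filters, CD8 cells only, scaling per cell, thinning, centring, the size limit and the class limits. Leaving out cells with melanoma markers, the split into cells with and without Pdcd1 and the limit of 6 genes were chosen after seeing the data. A planned set of cells, and a count of lower genes in the tumour comparison that rested on it, are not reported here.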

Additional observations from a re-analysis of the deposited data

How the results depend on the processing

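No paired analysis was possible because each group is 1 library and no result comes from a test. No log2 ratio of a member that passed the size limit changed sign under any alternative given here. The count of replication genes lower in tumour minus (4 of 12, with 7.15% of all genes lower) was 1 with a pseudocount of 5 CPM (3.78% of all genes). It was 0 relative to the median of all genes (3.86%) and 0 at a size limit of 1 (0.667%). The count of mitotic genes lower (5 of 18) was 2 with a pseudocount of 5 CPM (3.78% of all genes). It was 2 of 6 with at least 20 CPM and 5% of cells (5.44%) and 1 of 18 at a size limit of 1 (0.667%). In spleen 1 of 9 replication genes was lower, with 13.1% of all genes lower. The count was 0 with the pseudocount of 5 CPM (7.87% of all genes) and 2 of 11 without the filter (16.4%). It was 2 of 9 scaled per cell (15.2%), 0 relative to the median (8.67%) and 0 at a size limit of 1 (1.62%). That of mitotic genes (0 of 2) was 2 of 6 without the filter (16.4%). The count of mitotic genes higher in tumour was 5 of 5 in the plus and 9 of 9 in the minus fraction. With at least 20 CPM and 5% of cells it was 3 of 3 in each fraction, where 24.2% (plus) and 22% (minus) of all genes were higher. Fewer mitotic genes were thus measured, and every measured one was still higher. Without the filter it was 20 of 21 in the minus fraction (23.3%). The count of replication genes higher in the minus fraction (6 of 12, with 21.7% of all genes) was 2 of 7 with at least 20 CPM and 5% of cells (22%). Restricting the analysis to CD8 cells, or the tumour comparison to cells with Pdcd1 or to cells without melanoma markers, kept all these counts within 1.5 times.

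Replication-positive shares in tumour minus and plus were 26.9% and 27.6% with at least 2 genes, 6.74% and 6.98% with at least 4, 3.65% and 3.69% with at least 6 and 6.58% and 9.62% after thinning. Mitosis-positive shares were 15.8% and 18.5%, 3.88% and 4.77%, 2.54% and 2.21%, and 4.68% and 6.51%. The settings with other gene numbers change the limit itself, and thinning changes the totals per cell. The cause of these shifts, and of those under the other settings, was not tested. The rarest listed genes were in 5 cells per library (4 in spleen minus), which limits the mitotic genes in spleen plus most.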
